A study of Homo sapiens with 29 samples.

Results

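KLK2, KLK3 and KLK4 are kallikrein genes of the prostate, taken here as the rows of both deposited count tables whose Ensembl identifier belongs to KLK2, KLK3 or KLK4. They are 3 of the 63677 features in each table, and each had 1 row in each. The tables hold total RNA libraries of C4-2 and 22Rv1, both human lines of prostate cancer. C4-2 cells, which derive from LNCaP and grow after castration, were kept in medium that contains hormones. Its 7 treated groups were CC-115+Enza, NU7441+Enza, CC-223+Enza, Enza (the antiandrogen enzalutamide), CC-115, NU7441 and CC-223, set against untreated Ctrl, with 3 libraries in each of the 8 groups. 22Rv1 cells, derived from a xenograft that regrew after castration, had 2 CC-115 and 3 Control libraries. Treatment, alone or combined, lasted 24 h with 1 µM of each compound, according to the labels. NU7441 is known as an inhibitor of the DNA repair kinase DNA-PK, CC-223 as an inhibitor of TOR kinase, and CC-115 as an inhibitor of both. Each line is 1 cell line, and nothing in the labels says that libraries of a group came from separate cultures, so p-values measure the spread between libraries, which may be technical.

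Kallikreins are secreted serine proteases, and these 3 genes are expressed in luminal cells of the prostate, where androgen drives their transcription through hormone response elements near the genes. KLK3 encodes prostate-specific antigen, which cleaves the semenogelins of the seminal clot. KLK2 encodes a trypsin-like kallikrein that can activate the proform of prostate-specific antigen, and KLK4 encodes a protease also known from tooth enamel, where it removes matrix proteins. Because androgen sets their level, their transcripts are widely read as a measure of androgen signalling, and an antiandrogen such as enzalutamide is known to lower them.

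The genes lie together on chromosome 19. In hg19 KLK3 (ENSG00000142515) spans 51358171 to 51364020 on the plus strand with 4639 exon bases. KLK2 (ENSG00000167751) spans 51364824 to 51383823 on the plus strand with 6394 exon bases and starts 803 bases after KLK3 ends. KLK4 (ENSG00000167749) spans 51409608 to 51413994 on the minus strand with 1935 exon bases, 25.8 kb beyond KLK2. The exon bases are those of the deposited rows, taken over all transcripts of a gene, and they set the values per kb given here. KLK2 and KLK3 are close in sequence. Of the 6910 words of 50 bases in the GENCODE v29 transcripts of KLK2, 11 (0.159%) were also in KLK3 transcripts, and none of 100 bases was shared. These are exact matches. How many reads could fall to either gene was not tested. KLK4 shared no word of 50 bases with KLK1, KLK2, KLK3, KLK15 or KLKP1. A feature with no name on the other strand of KLK2 overlapped 60 of its exon bases and held 0 counts in every library.

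The 250 bases before each RefSeq transcription start (GRCh38.p14, printed 5′ to 3′ on the strand of the gene) show how alike the proximal promoters of KLK2 and KLK3 are and how KLK4 differs. Capitals mark the androgen response element in KLK3, its counterpart in KLK2, and a TATA-like word in the outer KLK4 start. KLK3 is at chr19:50854665-50854914 (plus strand), KLK2 at chr19:50873189-50873438 (plus strand), the inner KLK4 start at chr19:50910739-50910988 (minus strand) and the outer KLK4 start at chr19:50911396-50911645 (minus strand).
KLK3: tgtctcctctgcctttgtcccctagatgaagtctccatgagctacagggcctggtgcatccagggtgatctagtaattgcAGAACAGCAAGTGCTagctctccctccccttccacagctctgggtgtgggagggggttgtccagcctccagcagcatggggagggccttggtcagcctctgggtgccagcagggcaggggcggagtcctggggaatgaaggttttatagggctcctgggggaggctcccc
KLK2: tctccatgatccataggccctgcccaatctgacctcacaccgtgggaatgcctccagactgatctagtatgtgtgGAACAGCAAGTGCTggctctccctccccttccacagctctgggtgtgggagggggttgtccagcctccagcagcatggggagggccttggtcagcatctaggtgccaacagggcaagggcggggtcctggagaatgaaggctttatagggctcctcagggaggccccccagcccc
KLK4 inner start: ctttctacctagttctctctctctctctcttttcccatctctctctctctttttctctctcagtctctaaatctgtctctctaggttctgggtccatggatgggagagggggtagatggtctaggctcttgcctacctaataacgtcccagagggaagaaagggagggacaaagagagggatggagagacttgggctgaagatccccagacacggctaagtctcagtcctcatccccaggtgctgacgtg
KLK4 outer start: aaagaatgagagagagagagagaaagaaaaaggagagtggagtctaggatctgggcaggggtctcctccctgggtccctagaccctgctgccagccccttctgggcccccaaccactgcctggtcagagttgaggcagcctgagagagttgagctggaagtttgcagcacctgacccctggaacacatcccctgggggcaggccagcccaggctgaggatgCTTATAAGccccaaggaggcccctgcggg

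The element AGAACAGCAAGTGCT of the KLK3 promoter, known as its proximal androgen response element, lies at -170 to -156 from the start. KLK2 has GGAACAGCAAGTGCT at -176 to -162, and the only difference is A1G, with the KLK3 base first and positions counted from 1 at the 5′ end of the element; the capitals in the KLK2 line begin after that base. The shared core, written as GAACA and AGTGCT with any 3 bases between them and searched on both strands, was in 14 of 35116 RefSeq promoter windows of the same length (0.0399%). This core was written down from the known KLK3 element, so its presence in KLK3 is no finding. The word AGAACA, part of the KLK3 element, was in 12.4% of windows, and the palindromic form, GNACA and TGTNC with any 3 bases between them, was in 0.327% of windows and in none of the 4 shown. Neither KLK4 window held AGAACA or the core. The KLK2 window lacked AGAACA too and had GGAACA in its place. The outer KLK4 window also held the word GGAACA, whose share over all windows is not given here. The outer KLK4 window held TATAAG at -27 to -22 and, read on the other strand, at -29 to -24, and the capitals span both. This word was in 5.03% of windows. Its shorter form TATAA was in 18.9% of windows, among them those of KLK2 and KLK3, where it was read on the other strand. Aligned with each other, the KLK2 and KLK3 windows were identical at 211 of 234 aligned bases (90.2%), with a shared run of 80 bases. Windows of KLK4 matched those of KLK2 and KLK3 at 65.3% to 73.0% of aligned bases, with no shared run over 9 bases. These shares leave out gaps. The alignment of KLK2 with the inner KLK4 start had 146 identical and 200 aligned bases in 300 columns, against 266 columns for KLK2 with KLK3. The inner and outer KLK4 windows matched each other at 73.5% of aligned bases, so the KLK4 values do not show likeness to KLK2 or KLK3. These matches are descriptions of letters and say nothing of binding in these cells.

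The C4-2 libraries held 29.58 M to 44.86 M counts and the 22Rv1 libraries 31.61 M to 44.91 M. The smallest count of a kallikrein in any library was 462, for KLK4 with Enza, and for all genes the counts of replicates spread beyond counting error (chi-square per degree of freedom of at least 4.011). Both lines carried luminal markers, among them KRT8 at 103.9 to 289.7 CPM (counts per 1000000 counts of a library, group means) in the 8 C4-2 groups and at 496.7 and 604.4 CPM in 22Rv1 CC-115 and 22Rv1 Control. All 8 luminal markers were measured, and levels of the others are not given here. With CC-115 6 of the 8 rose and 2 fell in C4-2, where 53.6% of all genes were called. In 22Rv1 4 rose and 1 fell, where 40.9% of all genes were called. Of 4 basal markers, KRT5, KRT14 and TP63 had group means under 0.3 CPM, and KRT15 had at most 0.188 CPM in C4-2 and 1.34 and 1.53 CPM in 22Rv1 CC-115 and 22Rv1 Control. Of 7 stromal, immune and endothelial markers with a row, COL1A2, DCN, PTPRC and CD68 had group means of at most 0.426 CPM, and LUM reached 1.10 CPM in 22Rv1 Control. COL1A1 lay at 1.82 to 5.46 CPM and VWF at 0.723 to 4.09 CPM in the C4-2 groups. VWF fell with CC-115 (-1.14 ± 0.20, adjusted p = 3.40e-05). COL1A1 rose with Enza (1.26 ± 0.32, and 0.58 ± 0.21 without the libraries that stood apart) and with CC-115 in 22Rv1 (1.91 ± 0.38). The part of these changes in the kallikrein results was not tested. Of 5 neuroendocrine markers 4 had enough counts to be tested in 22Rv1 and 3 in C4-2. Among them 22Rv1 expressed ENO2 (143.9 CPM with CC-115 and 158.1 CPM in Control) and SYP (52.86 CPM and 59.6 CPM). In C4-2 ENO2 and SYP were at most 4.209 CPM and 3.031 CPM. Levels of CHGA, CHGB and INSM1 are not given here, so these values do not describe the list as a whole. The first Enza and the first CC-115+Enza library stood apart, with a mean correlation of 0.980 with their group mates on the log scale across genes, against at least 0.992 in the other 6 C4-2 groups. The same CC-115+Enza library had a scaling factor of 1.301 by the trimmed mean of M values (TMM), against 0.926 to 1.07 in the other C4-2 libraries. Many of the fold changes, ratios and group orders that use these groups are also given without those 2 libraries. The others, among them the genes of most like pattern, rest on all libraries.

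Levels of the members are CPM scaled by TMM. Without treatment the order of the kallikreins differed between the lines. Per kb of exon, C4-2 Ctrl had 415.5 ± 17.5 CPM of KLK3, 102.8 ± 1.77 CPM of KLK2 and 17.8 ± 1.00 CPM of KLK4 (mean ± SD, n = 3), so that KLK3 led. In 22Rv1 Control KLK4 led with 57.02 ± 10.3 CPM per kb, followed by KLK2 with 13.27 ± 0.348 and KLK3 with 8.153 ± 0.310 CPM per kb (n = 3). As levels over the whole gene, KLK3 was 50.98-fold and KLK2 7.75-fold higher in C4-2 Ctrl than in 22Rv1 Control, whereas KLK4 in 22Rv1 Control stood at 3.203 times its C4-2 Ctrl level. The lines were counted and scaled in separate tables, so line and table cannot be told apart and these levels were not tested. In bulk RNA, fewer expressing cells and less RNA per cell cannot be told apart.

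**Figure D1:**
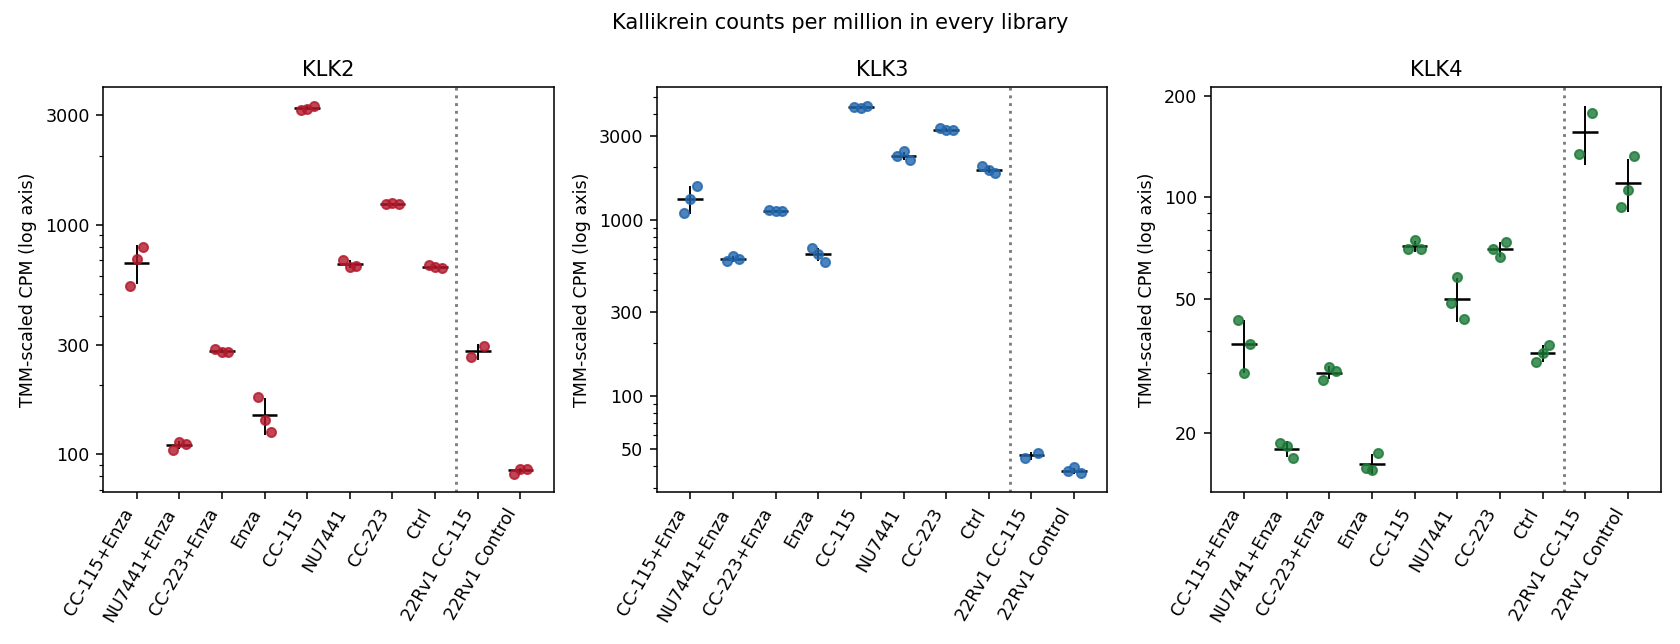
TMM-scaled CPM (log axis) of KLK2, KLK3 and KLK4 in the libraries of the 10 groups, with treated groups left of Ctrl and of 22Rv1 Control. Points are libraries, horizontal bars group means and vertical bars 1 SD, and the dotted line separates the separately scaled tables. KLK2 spans 109.5 to 3227 mean CPM in C4-2, KLK3 601.8 to 4369 and KLK4 16.19 to 71.63, and KLK4 alone is higher in both 22Rv1 groups than in every C4-2 group.

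CC-115 raised all 3 kallikreins in C4-2, and KLK2 by the most. KLK2 stood at 3183, 3189 and 3309 CPM with CC-115 and at 668.8, 657.8 and 646.2 CPM in Ctrl. Every CC-115 library lay above every Ctrl library, and the rise was 4.91-fold (log2 fold change ± SE 2.30 ± 0.13, adjusted p = 1.09e-13). KLK3 stood at 4382, 4293 and 4434 CPM with CC-115 and at 2009, 1928 and 1847 CPM in Ctrl, a 2.27-fold rise (1.18 ± 0.12, adjusted p = 2.63e-09). At this level KLK3 made up 0.4296% of all counts with CC-115, against 0.1821% in Ctrl. KLK4 stood at 70.04, 74.67 and 70.17 CPM with CC-115 and at 32.45, 34.56 and 36.32 CPM in Ctrl, a 2.08-fold rise (1.06 ± 0.11, adjusted p = 1.58e-08). Groups did not overlap for any of the 3 genes. Here and in the other comparisons the share of all genes without overlap is not given, so non-overlap only describes these libraries. CC-115 changed a large part of the transcriptome, with 53.6% of the 22860 genes tested called and 27.6% called higher and 26% lower.

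CC-223 also raised all 3, by 1.69-fold for KLK3 to 2.04-fold for KLK4. KLK2 stood at 1236, 1240 and 1232 CPM with CC-223, about the same in all 3 libraries and above all of Ctrl (0.91 ± 0.12, adjusted p = 8.28e-06). KLK3 stood at 3321, 3225 and 3211 CPM (0.75 ± 0.11, adjusted p = 2.85e-05), again above every Ctrl library. KLK4 stood at 70.4, 66.52 and 73.67 CPM (1.03 ± 0.11, adjusted p = 5.84e-07), a range that overlapped that of CC-115. Of all genes 23.9% were called with CC-223 and 12.9% were called higher, and 42.8% were called when the first Enza and CC-115+Enza libraries were left out of the common fit.

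With NU7441 KLK4 rose and KLK2 did not pass the test. KLK4 stood at 48.57, 58.19 and 43.43 CPM with NU7441, above every Ctrl library (0.54 ± 0.11, adjusted p = 0.00876). Of all genes 3.39% were called with NU7441 and 2.28% were called higher and 1.11% lower. The call for KLK4 was lost when the first Ctrl (adjusted p = 0.0883), the second Ctrl (adjusted p = 0.0726) or the second NU7441 library (adjusted p = 0.200) was left out. KLK3 stood at 2294, 2441 and 2180 CPM with NU7441, also above every Ctrl library, but missed the threshold (0.26 ± 0.11, adjusted p = 0.233). It passed when the first Enza and CC-115+Enza libraries were left out of the fit, where 21.7% of all genes were called (0.26 ± 0.06, adjusted p = 0.00224), and in a fit of NU7441 and Ctrl alone (0.25, adjusted p = 0.0454). KLK2 stood at 703.5, 654.1 and 663.7 CPM with NU7441, a range that overlapped Ctrl (0.04 ± 0.12, adjusted p = 0.926, 95% interval -0.21 to 0.28).

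Enza lowered all 3 kallikreins, and KLK2 by the most. KLK2 fell to 178.3, 140.8 and 125.4 CPM with Enza, against 668.8, 657.8 and 646.2 CPM in Ctrl, and was 4.44-fold lower (-2.15 ± 0.13, adjusted p = 2.53e-12). KLK3 fell to 693.6, 643.1 and 579 CPM and was 3.02-fold lower (-1.59 ± 0.12, adjusted p = 1.39e-10). KLK4 fell to 15.69, 15.48 and 17.42 CPM and was 2.13-fold lower (-1.09 ± 0.12, adjusted p = 1.58e-07). No Enza library reached a Ctrl library for any of the 3. Mitochondrial genes held 0.964%, 3.52% and 6.12% of counts in the Enza libraries, against 0.920%, 2.34% and 1.40% in Ctrl. The part of this difference in the kallikrein results was not tested. The first Enza library was the highest of its group for KLK2 and KLK3, and without it and the first CC-115+Enza library the changes were -2.30 ± 0.07, -1.66 ± 0.07 and -1.07 ± 0.10 for KLK2, KLK3 and KLK4. With Enza 16.1% of all genes were called and 6.75% were called lower and 9.35% higher (21.4% called without the 2 libraries). Comparisons with Ctrl share its 3 libraries and are not independent of each other.

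CC-115 and CC-223 raised all 3 kallikreins in the presence of Enza too. KLK2 stood at 540, 711 and 797.1 CPM with CC-115+Enza, against 178.3, 140.8 and 125.4 CPM with Enza (2.20 ± 0.13, adjusted p = 2.28e-13). The first CC-115+Enza library was the lowest of its group, and all 3 lay above every Enza library. KLK3 stood at 1089, 1305 and 1562 CPM with CC-115+Enza (1.05 ± 0.12, adjusted p = 1.95e-08) and KLK4 at 43.24, 30.05 and 36.68 CPM (1.18 ± 0.12, adjusted p = 3.49e-09). Without the libraries that stood apart the rises were 2.503 ± 0.07, 1.23 ± 0.08 and 1.03 ± 0.11. In this comparison 58.7% of all genes were called and 28.5% were called higher and 30.2% lower. The combination brought KLK4 to a range that overlapped that of Ctrl, while KLK3 stayed below every Ctrl library. For KLK2 the first CC-115+Enza library lay below every Ctrl library and the others lay above. Without the first, KLK2 with CC-115+Enza (711 to 797.1 CPM) lay above Ctrl (646.2 to 668.8 CPM).

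KLK2 stood at 288.3, 278.8 and 277.9 CPM with CC-223+Enza, above every Enza library (0.93 ± 0.12, adjusted p = 6.56e-06). KLK3 stood at 1132, 1116 and 1127 CPM (0.82 ± 0.11, adjusted p = 1.08e-05) and KLK4 at 28.64, 31.31 and 30.48 CPM (0.90 ± 0.12, adjusted p = 4.58e-06). Both exceeded all Enza libraries. Of all genes 28% were called, and 13% were called higher and 15% lower. Without the libraries that stood apart the rises were 1.08 ± 0.07, 0.88 ± 0.07 and 0.88 ± 0.10 for KLK2, KLK3 and KLK4.

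No kallikrein passed the test between NU7441+Enza and Enza. KLK2 stood at 104.4, 113.1 and 111 CPM with NU7441+Enza, below every Enza library, but did not pass the test (-0.44 ± 0.12, adjusted p = 0.121). Without the first Enza library, the highest of its group, and the first CC-115+Enza library the change was smaller but passed (-0.28 ± 0.06, adjusted p = 0.0111), and it also passed without the lowest Enza library alone (adjusted p = 0.0206). KLK3 stood at 582.5, 626.9 and 596 CPM (-0.09 ± 0.11, adjusted p = 0.764) and KLK4 at 18.63, 18.23 and 16.79 CPM (0.14 ± 0.12, adjusted p = 0.587), and both overlapped Enza. The 95% intervals were -0.31 to 0.14 for KLK3 and -0.09 to 0.38 for KLK4. In this comparison 0.381% of all genes were called, against 2.59% without the libraries that stood apart.

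**Figure D2:**
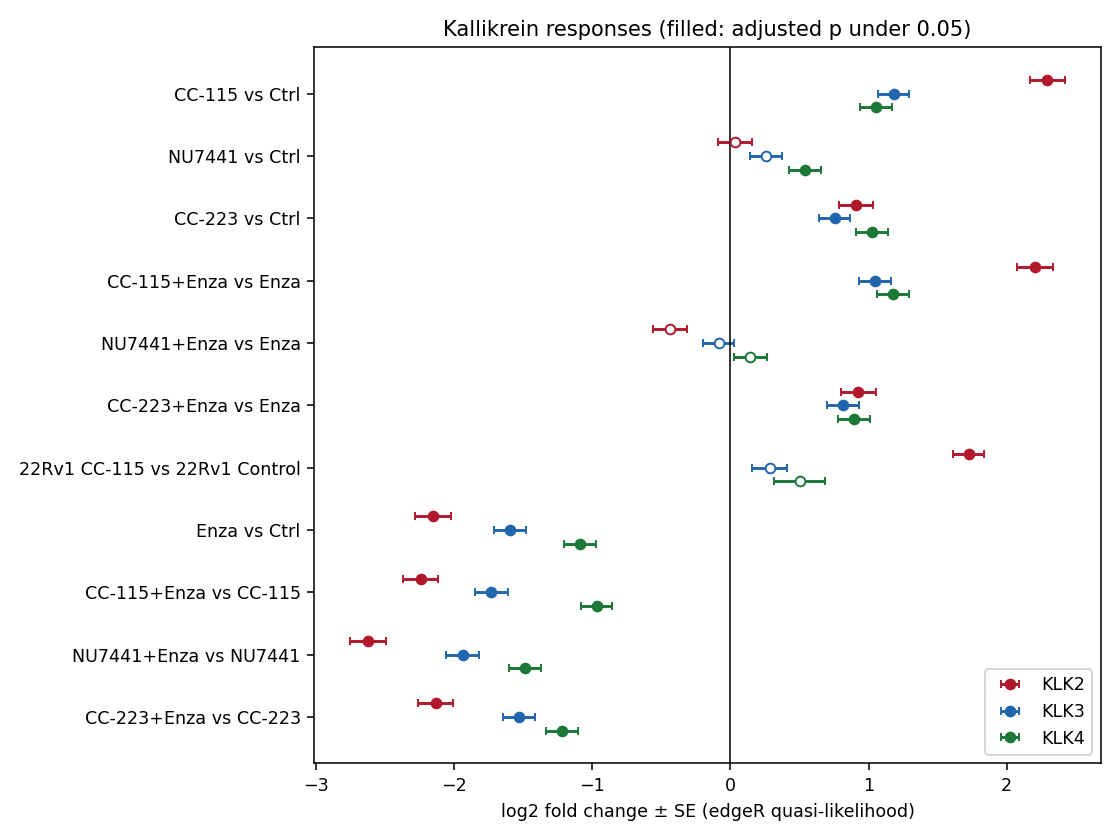
Log2 fold change ± SE (edgeR quasi-likelihood) of KLK2, KLK3 and KLK4 in 11 comparisons, named at the left with the treated group first. Filled points passed an adjusted p under 0.05. The CC-115 comparisons put KLK2 at 2.30, 2.20 and 1.73, to the right of KLK3 and KLK4, and the 4 comparisons that add Enza put KLK2 at -2.13 to -2.62, to the left of both.

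Seen from the other side, Enza lowered the kallikreins in the presence of each inhibitor. Beside CC-115 the changes were -2.24 ± 0.13 for KLK2, -1.73 ± 0.12 for KLK3 and -0.97 ± 0.11 for KLK4, where 23.8% of all genes were called, 11.7% higher and 12.2% lower. Without the libraries that stood apart they were -2.10 ± 0.07, -1.61 ± 0.07 and -1.10 ± 0.09. Beside CC-223 they were -2.13 ± 0.13, -1.53 ± 0.12 and -1.22 ± 0.11, with 12.4% called, 5.66% higher and 6.76% lower (26.6% called without the libraries that stood apart). Beside NU7441 they were -2.62 ± 0.13, -1.94 ± 0.12 and -1.49 ± 0.12, with 6.08% called, 2.75% higher and 3.32% lower (15.7% called without those libraries). All 9 of these falls passed the test, and in each case KLK2 fell most and KLK4 least.

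The interaction of inhibitor and Enza asks whether the inhibitor acts on a gene to the same degree with Enza as without. None of the 9 interactions of the members passed. With CC-115 they were -0.09 ± 0.17 (95% interval -0.43 to 0.25) for KLK2, -0.13 ± 0.16 (-0.45 to 0.18) for KLK3 and 0.12 ± 0.16 (-0.19 to 0.44) for KLK4, and all 3 changed sign without the libraries that stood apart. With CC-223 they were 0.02 ± 0.17 (-0.33 to 0.36), 0.06 ± 0.16 (-0.25 to 0.38) and -0.13 ± 0.16 (-0.45 to 0.19). With NU7441 they were -0.47 ± 0.18 (-0.81 to -0.13), -0.34 ± 0.16 (-0.66 to -0.03) and -0.40 ± 0.16 (-0.72 to -0.07), each with an adjusted p of 0.692. The intervals are not adjusted for the number of genes, and with NU7441 no gene of 22860 was called by edgeR, 1548 had an unadjusted p under 0.05 and DESeq2 called 0. Without the libraries that stood apart edgeR called 3 genes. For CC-115 3.27% of all genes were called and for CC-223 0.376%, against 6.17% and 1.92% without those libraries.

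The inhibitors were given at the same dose and time and can be set against each other. CC-115 exceeded CC-223 in KLK2 (1.39 ± 0.13, adjusted p = 1.46e-09) and KLK3 (0.43 ± 0.11, adjusted p = 0.00344), where 43.1% of all genes were called, 20.5% higher and 22.7% lower. For KLK4 the difference was 0.03 ± 0.11 (adjusted p = 0.862), with a 95% interval of -0.19 to 0.25. CC-115 also exceeded NU7441 in KLK2 (2.26), KLK3 (0.92) and KLK4 (0.52, adjusted p = 4.21e-04), with 49% of all genes called and 24.5% called higher. NU7441 lay below CC-223 in KLK2 (-0.88 ± 0.12, adjusted p = 4.32e-05), KLK3 (-0.50 ± 0.11, adjusted p = 0.00700) and KLK4 (-0.49 ± 0.11, adjusted p = 0.00750), with 7.31% called, 3.2% higher and 4.12% lower, against 25.2% called without the libraries that stood apart. The last pair of calls did not hold without single libraries: KLK3 missed the threshold without the last NU7441 or the first CC-223 library (adjusted p = 0.0695 and 0.0508), and KLK4 without the first or last NU7441 or the last CC-223 library (adjusted p = 0.0766, 0.0870 and 0.0513). These adjusted p-values run over genes within each pair of inhibitors, of which there were 3.

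In C4-2 the order of the groups by KLK2 was CC-115, CC-223, CC-115+Enza, NU7441, Ctrl, CC-223+Enza, Enza and NU7441+Enza. CC-115+Enza overlapped NU7441 and NU7441 overlapped Ctrl, and no other neighbours overlapped. Without the first CC-115+Enza library CC-115+Enza lay above NU7441 with no overlap. KLK2 in CC-115 libraries stood at 29.5 times its NU7441+Enza level, the widest span of the 3 genes. By KLK3 the order was CC-115, CC-223, NU7441, Ctrl, CC-115+Enza, CC-223+Enza, Enza and NU7441+Enza, with a span of 7.26-fold. Here CC-115+Enza overlapped CC-223+Enza, and Enza overlapped NU7441+Enza, of which the first pair no longer overlapped without the first CC-115+Enza library. By KLK4 the order was CC-115, CC-223, NU7441, CC-115+Enza, Ctrl, CC-223+Enza, NU7441+Enza and Enza, with a span of 4.42-fold. CC-115 overlapped CC-223, CC-115+Enza overlapped Ctrl, and NU7441+Enza overlapped Enza. Without the libraries that stood apart CC-115+Enza stood below Ctrl, overlapped both Ctrl and CC-223+Enza, and the span was 4.36-fold.

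A ratio of a pair of kallikreins within a library does not depend on library size, and it showed that the 3 genes moved by unequal amounts. The ratio KLK2/KLK3 per kb averaged 0.536 ± 0.00768 with CC-115, 0.276 ± 0.00490 with CC-223, 0.213 ± 0.0158 with NU7441 and 0.248 ± 0.00617 in Ctrl (mean ± SD, n = 3). With Enza added it averaged 0.375 ± 0.0182 for CC-115, 0.182 ± 0.00291 for CC-223 and 0.132 ± 0.00275 for NU7441, against 0.168 ± 0.0165 with Enza. Over the 4 pairs of groups that differ by Enza, the log2 ratio was lower with Enza by a mean difference of -0.59, and every library with Enza lay below every one without in all 4 pairs (exact permutation test within pairs, two-sided p = 1.25e-05, adjusted over 12 tests 5e-05). CC-115 shifted it by 1.14 over the pairs with and without Enza (exact permutation test, p = 0.005, adjusted 0.00857, the smallest p this design can give). NU7441 shifted it by -0.28 (exact permutation test, p = 0.005, adjusted 0.00857) and CC-223 by 0.14 (exact permutation test, p = 0.02, adjusted 0.03). By groups, the Enza differences were -0.57 in untreated cells, -0.68 beside NU7441, -0.52 beside CC-115 and -0.60 beside CC-223. Without the libraries that stood apart the mean differences in this ratio were -0.61 for Enza, 1.20 for CC-115, -0.24 for NU7441 and 0.18 for CC-223, and all 4 still passed (exact permutation tests, adjusted p = 0.0001, 0.025, 0.01 and 0.01).

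The ratio KLK4/KLK3 moved the other way with Enza. It was higher by a mean log2 difference of 0.51, again without overlap in all 4 pairs (exact permutation test, p = 1.25e-05, adjusted 5e-05). With CC-115 it differed by 0.00 (exact permutation test, p = 0.99), that is, by -0.12 without Enza and 0.13 with it. The second value rested on the first CC-115+Enza library: its log2 ratio was -3.39, against -4.18 and -4.15 in the other CC-115+Enza libraries. Without it and the first Enza library the difference with Enza was -0.21, and the mean over both pairs was -0.17 (exact permutation test, p = 0.0667, adjusted 0.08). NU7441 shifted KLK4/KLK3 by 0.25 (exact permutation test, p = 0.025, adjusted 0.0333), a call lost without the libraries that stood apart (0.21, adjusted 0.0667), and CC-223 by 0.17 (exact permutation test, p = 0.075, adjusted 0.09). KLK2/KLK4 followed from both, with -1.10 for Enza (exact permutation test, p = 1.25e-05, adjusted 5e-05), 1.14 for CC-115 and -0.53 for NU7441 (exact permutation test, p = 0.005 and adjusted 0.00857 for each). For CC-223 it was -0.04 (exact permutation test, p = 0.755), and 0.05 without the libraries that stood apart.

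**Figure D3:**
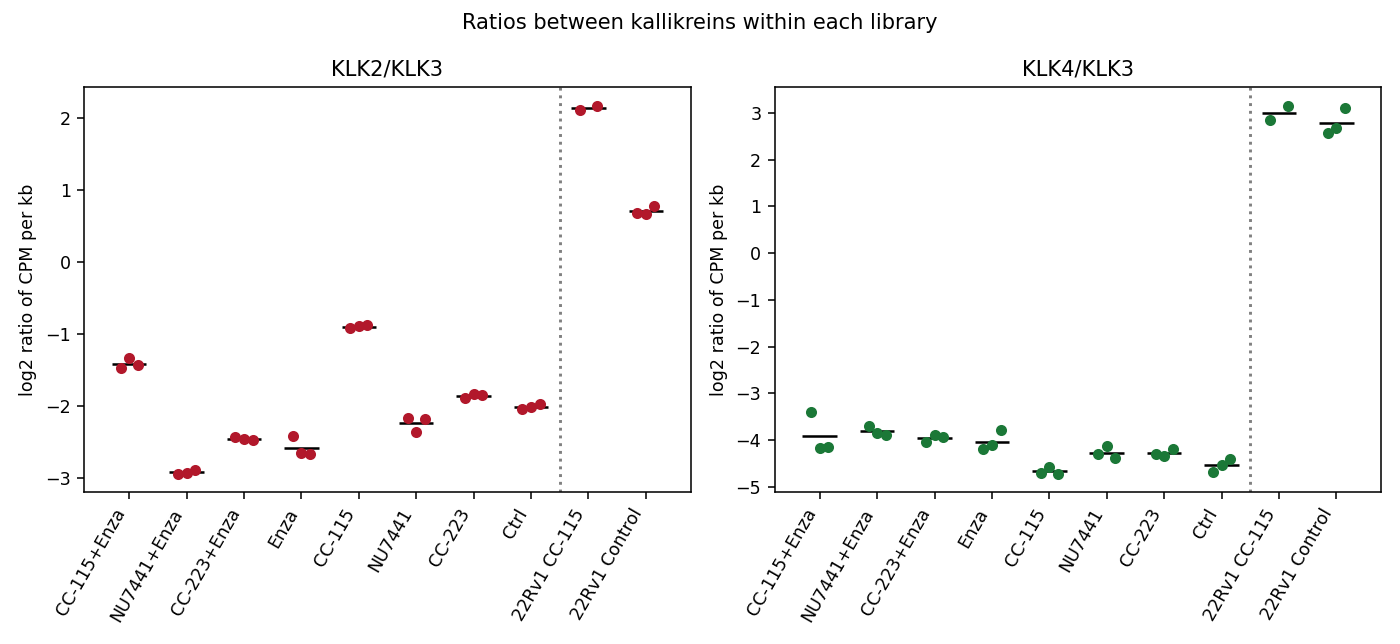
Log2 ratio of CPM per kb for KLK2/KLK3 and KLK4/KLK3 in each library of the 10 groups, treated groups left of Ctrl and of 22Rv1 Control. Points are libraries and bars group means, and the dotted line separates the lines. CC-115 raises KLK2/KLK3 in C4-2 with and without Enza (mean difference 1.14) and in 22Rv1 (1.44), while the mean KLK4/KLK3 difference with CC-115 in C4-2 is 0.00, and -0.17 without the first Enza and CC-115+Enza libraries, and KLK4/KLK3 is higher in every Enza group than in its counterpart.

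In 22Rv1 CC-115 raised KLK2, while KLK3 and KLK4 missed the threshold. KLK2 stood at 264.9 and 296.4 CPM with CC-115 and at 82.29, 86.26 and 86.01 CPM in Control, a 3.31-fold rise (1.73 ± 0.11, adjusted p = 1.29e-04) in a comparison where 40.9% of 19392 genes were called and 20.2% called higher. KLK3 stood at 44.37 and 47.77 CPM with CC-115 and at 37.42, 39.42 and 36.63 CPM in Control (0.28 ± 0.13, adjusted p = 0.107). The CC-115 libraries lay above the Control libraries. KLK4 stood at 134.2 and 178.1 CPM with CC-115 and at 93.63, 105 and 132.4 CPM in Control (0.50 ± 0.18, adjusted p = 0.0580), likewise without overlap but with a wider spread. It passed with DESeq2 (0.51, adjusted p = 0.0474), without a filter on low counts (0.48, adjusted p = 0.00372), and without the third Control (adjusted p = 0.0109). Leaving out a CC-115 library leaves a single one, assumed to vary like Control, and gave 0.69 (adjusted p = 0.0199) without the first and 0.28 (adjusted p = 0.319) without the second. The ratio KLK2/KLK3 per kb averaged 4.42 ± 0.120 with CC-115 (n = 2) and 1.63 ± 0.0648 in Control (n = 3). That is a log2 difference of 1.44, for which 2 against 3 libraries cannot give an exact permutation p below 0.1, the value obtained.

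Tested directly, the CC-115 effect was larger in C4-2 than in 22Rv1 for KLK2 (difference 0.52 ± 0.09, adjusted p = 8.80e-04) and for KLK3 (0.85 ± 0.09, adjusted p = 2.79e-05). For KLK4 the difference of 0.51 ± 0.18 missed the threshold (adjusted p = 0.0529). It passed with DESeq2 (0.54, adjusted p = 0.0483) and without the first Control (adjusted p = 0.0282) or the second Control (adjusted p = 0.0415) of 22Rv1. With only 1 of the 2 22Rv1 CC-115 libraries, assumed to vary like the other groups, the difference was 0.34 (adjusted p = 0.149) without the first and 0.76 (adjusted p = 0.00607) without the second. In this test 27.5% of 22922 genes were called and 12.3% were called larger in C4-2. Line, library set and count table cannot be told apart in these differences.

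Other genes known to be induced by androgen did not all move as the kallikreins did. Of 30 such genes, all measured in C4-2, 25 fell and 1 rose with Enza (median -1.47, against 0.06 over all genes), the same counts as without the libraries that stood apart (median -1.42). CHRNA2, a nicotinic receptor subunit (-3.95 ± 0.21), the transcription factor MAF (-3.41 ± 0.14) and the transporter SLC45A3 (-3.34 ± 0.12) fell most, each further than KLK2. With CC-223 24 rose and none fell (median 0.67, against 0.07). With CC-115 17 rose and 6 fell (median 0.45, against 0.03), and with NU7441 2 rose and none fell. Of all genes 12.9% were called higher with CC-223, 27.6% higher and 26% lower with CC-115, and 2.28% higher with NU7441. With Enza 6.75% of all genes were called lower and 9.35% higher. With NU7441 8 of the 30 rose and 6 fell when the libraries that stood apart were left out, where 21.7% of all genes were called. The protease TMPRSS2 (1.59 ± 0.12), the centromere protein CENPN (1.49 ± 0.14) and the metalloreductase STEAP4 (1.34 ± 0.23) rose most with CC-115, each less than KLK2.

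With CC-115+Enza against Enza 11 of the 30 rose and 13 fell (median -0.10, against 0.03 over all genes), while all 3 kallikreins rose. Of all genes 28.5% were called higher and 30.2% lower. With the first Enza and CC-115+Enza libraries left out 12 of the 30 rose and 14 fell (median -0.17). There 57.8% of all genes were called. MAF (-1.58 ± 0.20) and the co-chaperone FKBP5 (-1.49 ± 0.14) were among those that fell, and TMPRSS2 rose by 0.43 ± 0.11. Other genes of the list rose further. Without the libraries that stood apart ACP3 (2.08 ± 0.09) and HERC3 (1.82 ± 0.08) rose more than KLK3 (1.23) and KLK4 (1.03), and less than KLK2 (2.503). The interaction of CC-115 with Enza passed for 12 of the 30 genes, 2 of them higher and 10 lower. Without the libraries that stood apart it passed for 3 higher and 13 lower. It passed for 3.27% of all genes, and for 6.17% without those libraries. It was -2.45 ± 0.23 for MAF and -1.16 ± 0.16 for TMPRSS2, and it passed for no kallikrein. Among those higher without the libraries that stood apart were ACP3 (1.25 ± 0.12) and HERC3 (1.12 ± 0.10). With CC-223+Enza against Enza 13 of the 30 rose and 5 fell (16 and 8 without the libraries that stood apart). With NU7441+Enza none of the 30 was called (3 rose without those libraries). Of all genes 13% were called higher and 15% lower with CC-223+Enza, and 0.381% were called with NU7441+Enza. Without those libraries 36.3% and 2.59% of all genes were called.

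In 22Rv1 with CC-115 10 of 29 androgen-induced genes fell and 2 rose (median -0.50, against -0.02 over all genes), where 40.9% of all genes were called, 20.7% lower and 20.2% higher. The share of the list that was called is thus near that of all genes. FKBP5 (-1.33 ± 0.14) and the condensin subunit NCAPD3 (-1.30 ± 0.11) were among those that fell. TMPRSS2 (0.44 ± 0.14, adjusted p = 0.0353) and SLC45A3 (0.47 ± 0.16, adjusted p = 0.0477) were those that rose. The CC-115 effect was larger in C4-2 for 19 of the 30 genes and smaller for 3 (median difference 0.93, against 0.00 over all genes), in a test where 12.3% of all genes were called larger in C4-2 and 15.2% smaller.

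**Figure D4:**
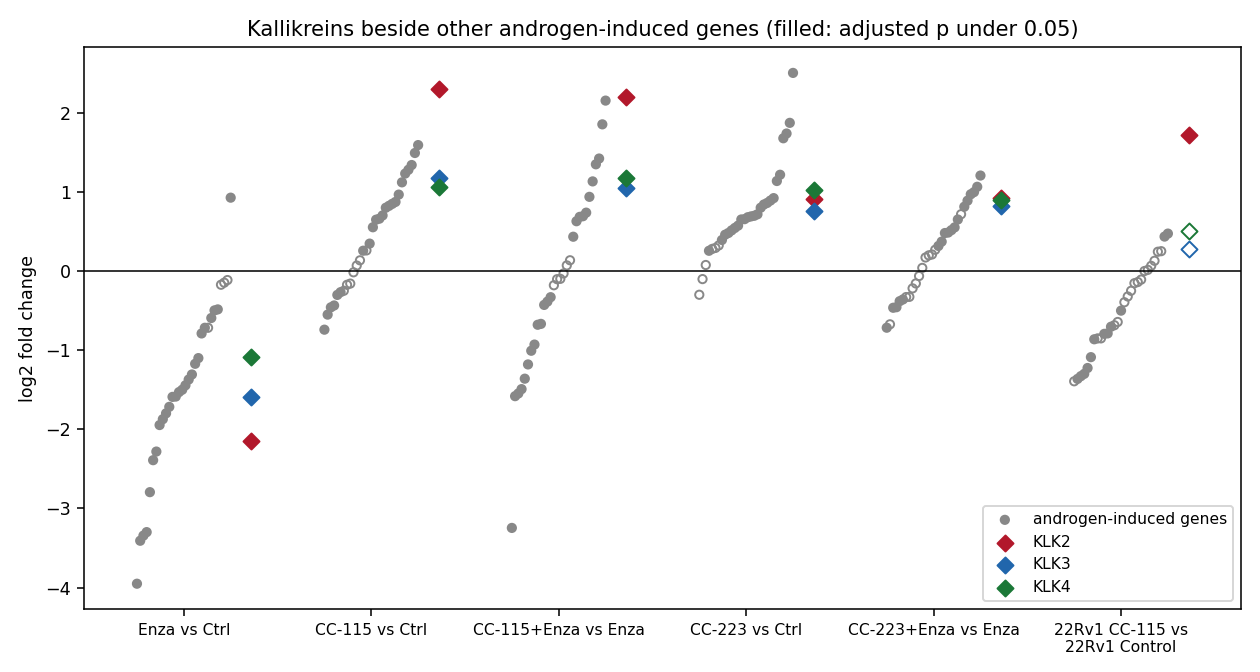
Log2 fold change of 30 androgen-induced genes (grey circles) and of KLK2, KLK3 and KLK4 (coloured diamonds) in 6 comparisons, with filled symbols for an adjusted p under 0.05. With Enza the median of the list is -1.47 and all 3 kallikreins are below 0, and with CC-115+Enza against Enza the list is spread around a median of -0.10 while the kallikreins lie at 1.05 to 2.20.

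The other kallikreins of the cluster were mostly silent. Of 13 genes, only KLK1, KLK15 and the pseudogene KLKP1 had enough counts to be tested in C4-2, and KLK11 and KLK13 passed in addition in 22Rv1. KLK15, whose protein can activate the proform of prostate-specific antigen, had 205 to 247 counts per library with CC-115 and 113 to 129 in Ctrl. It rose with CC-115 (0.80 ± 0.13, adjusted p = 1.27e-05) and fell with Enza (-0.76 ± 0.15, adjusted p = 6.20e-04). KLKP1, which lies between KLK2 and KLK4, fell with Enza (-1.04 ± 0.22) and had 0.20 ± 0.20 with CC-115 (adjusted p = 0.419). Without the libraries that stood apart the Enza changes were -0.88 ± 0.16 for KLK15 and -0.82 ± 0.17 for KLKP1. Of all genes 27.6% were called higher with CC-115 and 6.75% lower with Enza. In 22Rv1 KLK13 (2.55 ± 0.57), KLK15 (0.78 ± 0.17) and KLK11 (0.62 ± 0.21) rose with CC-115, and KLKP1 fell (-0.93 ± 0.19). There 20.2% of all genes were called higher and 20.7% lower. KLK13 had only 24 to 29 counts per library with CC-115 and 2 to 8 in Control.

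**Figure D5:**
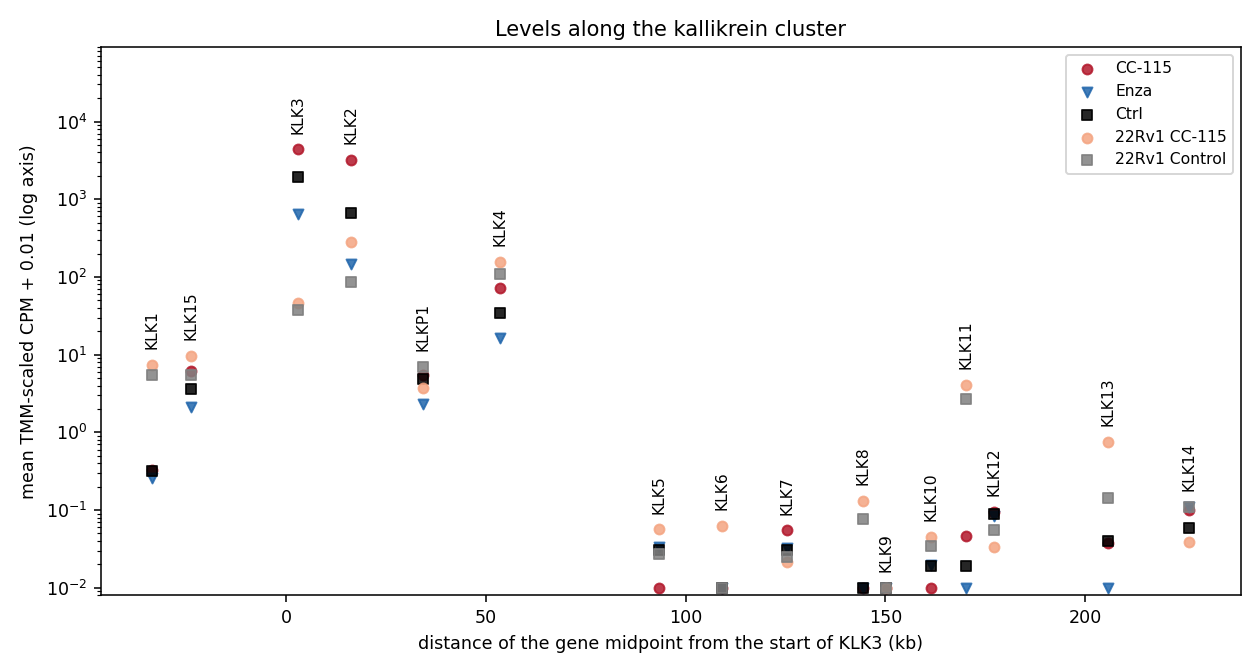
Mean TMM-scaled CPM of the 16 genes of the kallikrein cluster (log axis, with 0.01 added so that genes at 0 can be drawn) against the distance of their midpoints from the start of KLK3, for CC-115, Enza, Ctrl, 22Rv1 CC-115 and 22Rv1 Control. KLK2, KLK3 and KLK4 stand above the rest, KLK15 and KLKP1 lie between 2.113 and 9.534 CPM, and KLK5 to KLK10 are near 0 in these groups.

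Inhibitors and substrates of kallikreins were a list of 19 genes, 9 of them measured in C4-2. With CC-115 3 rose and 2 fell (median 0.25, against 0.03 over all genes), and 5 of 10 rose and 2 fell when the libraries that stood apart were left out. With CC-115 53.6% of all genes were called (63.7% without those libraries), so that the share called in the list is near that of all genes. IGFBP3, an insulin-like growth factor binding protein that prostate-specific antigen can cleave, rose (2.94 ± 0.13), as did fibronectin, FN1 (1.55 ± 0.11), and IGFBP5 fell (-1.34 ± 0.50). With Enza IGFBP5 (1.16 ± 0.38) and the protease inhibitor SPINT1 (0.37 ± 0.12, adjusted p = 0.0294, but 0.0625 without the libraries that stood apart) rose, and F2RL1, a receptor opened by proteases, fell (-0.36 ± 0.10). In 22Rv1 with CC-115 6 of 9 rose and 1 fell (median 0.83, against -0.02 over all genes, of which 20.2% were called higher and 20.7% lower), led by FN1 (2.32 ± 0.15), the inhibitor SPINK5 (1.96 ± 0.24) and IGFBP3 (1.89 ± 0.10).

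The genes of most like pattern were found by the root mean square difference of log2 CPM over the 8 C4-2 group means, each gene centred on its own mean, among 11310 genes. For KLK3, whose own root mean square deviation was 0.974, they were TENM1 (0.127), ZBTB16 (0.189), ABCC4 (0.247), HERC5 (0.265) and DUSP4 (0.277), with KLK4 in place 8 (0.290) and KLK2 in place 159 (0.613). For KLK4 (own deviation 0.753) they were ZBTB10 (0.181), PTPRM (0.192), SWT1 (0.208), LPAR3 (0.209) and ZBTB16 (0.214), with KLK3 in place 13 and KLK2 in place 6278 (0.827). For KLK2 (own deviation 1.502) the nearest genes were AFF3 (0.456), GPR158 (0.479), NNMT (0.486), EFCAB12 (0.551) and INPP4B (0.558), with KLK3 in place 10 and KLK4 in place 38. The measure grows with the size of a gene's own changes, so its values are not compared between members. KLK2 lay further from KLK4 (0.827) than a gene with no changes at all would lie (0.753). Its place 6278 thus reflects the size of its changes and does not show an unlike direction. Both genes rose with CC-115 and CC-223 and fell with Enza. TENM1, which encodes a teneurin, had 1.19 ± 0.13 with CC-115 and -1.64 ± 0.14 with Enza, beside 1.18 and -1.59 for KLK3. TENM1 was chosen for its closeness to KLK3 in these same groups, so this likeness is no separate finding. The nearest genes of KLK2 rose less than it with CC-115, by 1.42 for NNMT to 1.63 for EFCAB12. In 22Rv1, which the measure did not use, AFF3 (0.50 ± 0.12), ZBTB16 (0.49 ± 0.15), DUSP4 (1.25 ± 0.13) and LPAR3 (1.20 ± 0.14) rose with CC-115, and the other 10 of these 14 genes were not called, in a comparison where 40.9% of all genes were called and 20.2% called higher.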

How the data were processed

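The deposited values were raw read counts per Ensembl feature, 1 table per cell line. Per the submitters' processing notes the authors aligned reads to hg19 with STAR 2.5.2a, counted them with featureCounts 1.5.0-p3 and tested with DESeq2 1.14.1. The kit was stranded and depleted of ribosomal RNA, per the labels' protocols, while the sources used here give neither the annotation release nor the strand setting of the counting. Symbols came from GENCODE v29 for 52526 of 63677 features, and promoter windows from RefSeq (GRCh38.p14), where all 3 members matched.

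Groups came from the sample titles. All 24 C4-2 libraries were fitted together, the 5 22Rv1 libraries apart, and C4-2 Ctrl and CC-115 with 22Rv1 for the difference between lines. Genes kept by filterByExpr were scaled by TMM and tested with the robust quasi-likelihood F-test of edgeR 4.0.16 (R 4.3.3), with Benjamini-Hochberg adjustment over all genes of a comparison and calls at an adjusted p under 0.05. SE was derived from F as the size of the log2 fold change over the root of F, and 95% intervals are normal intervals from it. Ratios were tested by exact permutation of labels within pairs of groups. DESeq2 1.42.0, other scalings and filters, a replicate block and left-out libraries were the alternatives. The tests were also run on simulated data as a check of the code, which cannot show that their assumptions hold in these libraries.

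The members, gene lists and tests were chosen with earlier results of these data known. Named genes were the members, up to 3 called genes of each list reported with the largest change with CC-115, with Enza and with CC-115 in 22Rv1, and the 5 genes of most like pattern. TMPRSS2, FKBP5 and MAF in other comparisons, ACP3, HERC3, KLK11, and SLC45A3 and TMPRSS2 in 22Rv1 were named after their values were seen. Some genes that this rule names, and 1 further list, are not reported here.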

Additional observations from a re-analysis of the deposited data

Results flagged for a closer look

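The rise of KLK2 with CC-115 differed between the lines: the log2 effect in C4-2 minus that in 22Rv1 was 0.5195 (SE 0.09, adjusted p = 8.80e-04, edgeR interaction test). All 3 C4-2 and both 22Rv1 libraries with CC-115 lay above all untreated libraries of their line.

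The rise of KLK3 with CC-115 also differed between the lines, by 0.8463 (SE 0.09, adjusted p = 2.79e-05, edgeR interaction test). KLK3 was called in C4-2 (1.18 ± 0.12) and not in 22Rv1 (0.28 ± 0.13). Line, library set and count table cannot be told apart in either difference.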

How the results depend on the processing

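Under the alternatives that left out no single replicate, 351 fold changes of the members kept their direction and their side of the threshold, 12 passed in addition and 3 changed sign. Those that passed were KLK3 with NU7441 against Ctrl, without the first Enza and CC-115+Enza libraries (0.258) and in a fit of those groups alone (0.2465), and KLK2 with NU7441+Enza against Enza, with DESeq2 (-0.4477), with at least 10 counts in every library (-0.4481) and without those first libraries (-0.282). KLK4 passed in 22Rv1 with DESeq2 (0.5124), with no filter (0.4826) and with at least 10 counts (0.5109), and its difference between lines passed with DESeq2 (0.5433) and with no filter (0.6107). The interactions of CC-115 with Enza, none of them called, changed sign without the first libraries to 0.2075 for KLK2, 0.05031 for KLK3 and -0.03015 for KLK4. The cause was not tested.

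Replicate numbers did not pair the samples: libraries of the same number in different C4-2 groups deviated from their group means with a median correlation of -0.00457 (84 pairs, 5 over 0.1). With the number as a replicate block KLK4 passed in 22Rv1 (0.6413) and in the difference between lines (0.4557), and the block changed no other call of the members.

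Leaving out 1 library in turn gave, where a call or sign changed, -0.03312 to 0.03423 for KLK2 and 0.3961 to 0.6088 for KLK4 with NU7441 against Ctrl. The range was -0.5627 to -0.2886 for KLK2 with NU7441+Enza against Enza, where it passed without the third Enza library. Interactions ran from -0.2013 to 0.08995 (KLK2) and -0.01146 to 0.2581 (KLK4) for CC-115 and from -0.06407 to 0.2253 (KLK2) for CC-223. NU7441 against CC-223 gave -0.516 to -0.4352 for KLK3 and -0.5854 to -0.3726 for KLK4. KLK4 ran from 0.2834 to 0.6902 in 22Rv1 and from 0.3437 to 0.7641 in the difference between lines.

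Ratio tests kept their calls with raw counts and 1 count added. Without the first Enza and CC-115+Enza libraries, chosen after seeing the data, KLK4/KLK3 with NU7441 lost its call (0.2079), and differences that had not passed changed sign for KLK4/KLK3 with CC-115 (-0.1672) and KLK2/KLK4 with CC-223 (0.04551). Without 1 replicate number of every group, the inhibitor tests are too small to pass after adjustment, and the differences were -0.3167 to -0.2617 (NU7441), 1.101 to 1.192 (CC-115) and 0.1169 to 0.1704 (CC-223) for KLK2/KLK3. They were 0.1518 to 0.3937 (NU7441) and -0.1944 to 0.1726 (CC-115) for KLK4/KLK3, and -0.7103 to -0.4136 (NU7441), 0.9553 to 1.386 (CC-115) and -0.1169 to 0.04736 (CC-223) for KLK2/KLK4.

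With CPM of the raw total in place of TMM, 20 of 30 group levels moved by less than 1 SD. The others were 4296 (KLK3, CC-115), 1221 (KLK2, CC-223), 621.3 and 1821 (KLK2 and KLK3, Ctrl), 298.1, 1191 and 31.89 (KLK2, KLK3 and KLK4, CC-223+Enza), 43.05 (KLK3, 22Rv1 CC-115), and 88.63 and 39.52 (KLK2 and KLK3, 22Rv1 Control).

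Counts of 2 lists were compared without the first Enza and CC-115+Enza libraries, again chosen after seeing the data: androgen-induced genes in each inhibitor and Enza comparison with Ctrl or Enza and in the interactions of CC-115 and CC-223 with Enza, and inhibitors and substrates with CC-115, Enza, CC-115+Enza and CC-223+Enza. Those that moved by over 1.5 times were androgen-induced genes with NU7441 (8 higher, 6 lower), CC-223 (1 lower), NU7441+Enza (3 higher), CC-223+Enza (8 lower) and the CC-223 interaction (16 lower, against 7 with all libraries), and inhibitors and substrates with CC-115 (5 higher), CC-115+Enza (2 higher, against 4) and CC-223+Enza (4 higher, against 2). Of all genes, 21.7% were then called with NU7441, 42.8% with CC-223 and 63.7% with CC-115. The shares were 2.59% with NU7441+Enza, 57.8% with CC-115+Enza, 36.3% with CC-223+Enza and 1.92% for the CC-223 interaction.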
